A study of Gallus gallus with 4 samples.

Results

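The genes described here are 7 autophagy and mitophagy genes of chicken breast muscle, BNIP3, BNIP3L, ULK1, ULK2, SQSTM1, FAM134B and SESN1, taken by their gene symbols from a table of 17934 gene IDs. Each symbol matched 1 gene ID, and all 7 genes passed the minimum mean of 1 FPKM that left 10669 genes for the test. FPKM is a fragment number scaled to transcript length and to the mapped fragments of the library, so levels of different genes can be set side by side. The libraries came from breast muscle of female birds of the slow-growing Xing Hua Chicken (XH) and the fast-growing Recessive White Rocks (WRR) at 7 weeks of age, reared with free access to the same feed. In each breed, 3 birds of low and 3 birds of high body weight were chosen, which gave the groups XHl, XHh, WRRl and WRRh. The birds averaged 207.6 g (± 11.1) in XHl, 305.8 g (± 23.3) in XHh, 695.0 g (± 24.4) in WRRl and 1064.0 g (± 11.1) in WRRh, and the kind of error is not given. The RNA of the 3 birds of a group was mixed, so each group is 1 library. The breeds came from different suppliers, so breed and supplier cannot be told apart. Low and high weight are relative to each breed, and both XH pools were lighter than both WRR pools. Breed therefore cannot be told apart from body weight either.

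Autophagy encloses cytoplasm in a membrane and delivers it to the lysosome, and muscle uses it to renew mitochondria, endoplasmic reticulum and proteins. In mammals, sestrins restrain the growth kinase complex mTORC1, which in turn holds back the ULK kinases that start the process. Receptor proteins then tie a chosen cargo to the ATG8 proteins of the growing membrane. SQSTM1 does so for ubiquitinated proteins, BNIP3 and BNIP3L for mitochondria, and FAM134B for the endoplasmic reticulum. RNA levels of these genes do not measure the rate of autophagy.

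FAM134B, SESN1 and BNIP3 were called higher in XH, and no gene of the 7 was called lower. SQSTM1 was lower in both XH pools but missed the threshold (log2 change -0.63, limma, adjusted p = 0.0575). FAM134B was 3.36-fold higher in XHl than in WRRl and 6.06-fold higher in XHh than in WRRh, SESN1 2.75-fold and 2.42-fold, and BNIP3 2.19-fold and 2.20-fold. These 3 genes passed limma's test with Benjamini-Hochberg adjustment over all 10669 genes, in which 130 genes (1.22%) were called higher and 377 (3.53%) lower in XH. At an unadjusted p under 0.05 stood 5 of the 7 genes and 3658 of all genes. The 7 were chosen with earlier results of these data known, so their counts beside those of all genes are descriptive only. The test rests on 1 residual degree of freedom, because the weight classes stand in for replicates of a breed. The calls were narrow: the adjusted p was 0.0483 for FAM134B, 0.0468 for SESN1 and 0.0479 for BNIP3, and none of the 3 passed without the XHh library (0.227 each) or without the XHl library (0.211 each) in fits that also dropped weight class from the model. Those fits called 14 and 13 genes in all, and 0 of the 7 passed with a pseudocount of 5, with no minimum FPKM, with quantile normalization or with plainer moderation. In fits of the same kind, SESN1 also lost its call without WRRh (0.0565) and without WRRl (0.0640).

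**Figure D1:**
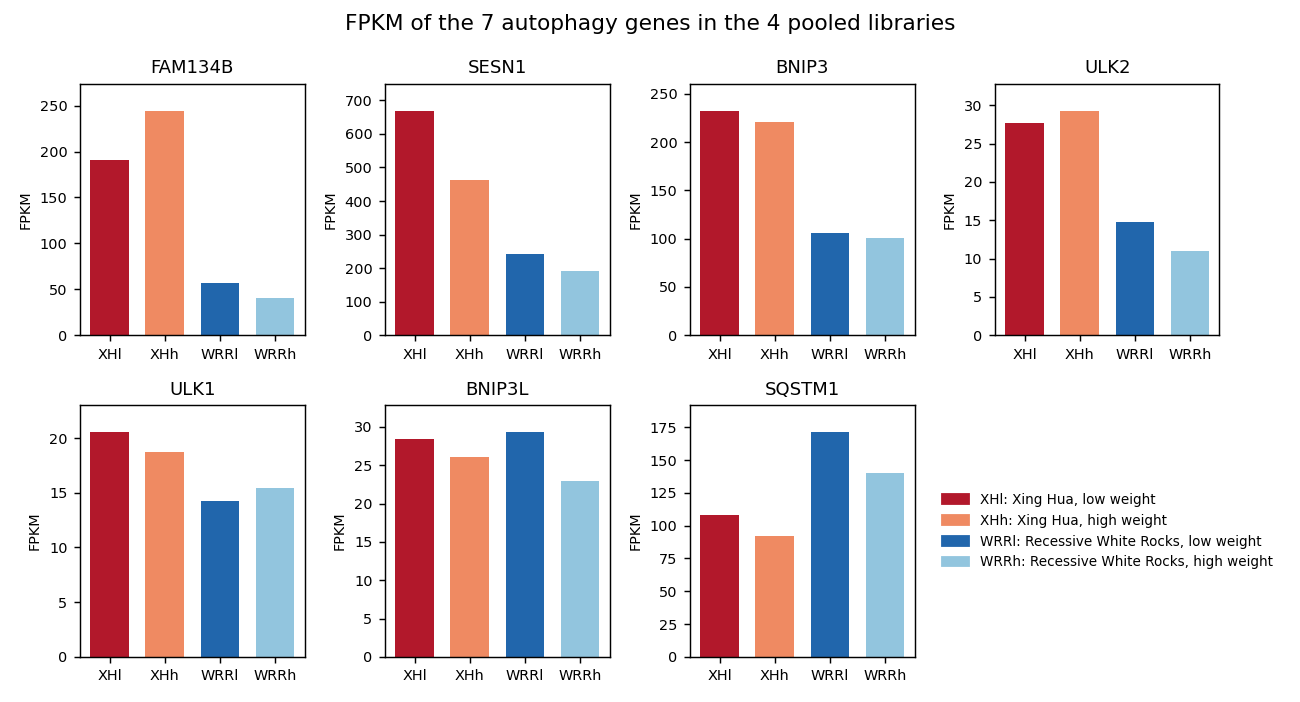
FPKM of the 7 genes in the 4 pooled libraries, 1 bar per library with no error bar, each panel with its own axis from 0. The bars of FAM134B, SESN1, BNIP3, ULK2 and ULK1 are higher in both XH libraries than in both WRR libraries, those of SQSTM1 are lower, and those of BNIP3L overlap.

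SESN1 encodes a sestrin, a stress-induced regulator upstream of mTORC1. Its gene (ENSGALG00000015286) lies on chromosome 3 at 69773277 to 69786080, in positions as the tables give them, whose genome build was not established. SESN1 had 669.8 FPKM in XHl and 462 FPKM in XHh, against 243 FPKM in WRRl and 191 FPKM in WRRh. It was the most abundant of the 7 genes in every library, both XH pools exceeded both WRR pools, and in each breed the low-weight pool had more. The change between the breeds was 1.36 on the log2 scale of FPKM + 1 (SE 0.11, limma, adjusted p = 0.0468).

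ULK1 and ULK2 encode related protein kinases that start autophagosome formation. ULK1 (ENSGALG00000002403, chromosome 15, 2651446 to 2721959) had 20.5 FPKM in XHl and 18.8 FPKM in XHh, against 14.3 FPKM in WRRl and 15.5 FPKM in WRRh. The breeds did not overlap, but the log2 change of 0.38 (SE 0.14) did not pass the test (limma, adjusted p = 0.147). ULK2 (ENSGALG00000004727, chromosome 19, 6751629 to 6786139) had 27.8 FPKM in XHl and 29.3 FPKM in XHh, against 14.8 FPKM in WRRl and 11.0 FPKM in WRRh. Both XH pools stood well above both WRR pools, by 1.88-fold in XHl over WRRl and 2.67-fold in XHh over WRRh. The log2 change of 1.10 (SE 0.17) missed the threshold at an adjusted p of 0.0523 in limma, and it passed in 7 of 14 alternative fits.

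SQSTM1, also known as p62, encodes a receptor that gathers ubiquitinated proteins and is itself degraded by autophagy. SQSTM1 (ENSGALG00000005906, chromosome 13, 13545462 to 13549503) had 108 FPKM in XHl and 91.8 FPKM in XHh, against 171 FPKM in WRRl and 139.9 FPKM in WRRh. It was the only gene of the 7 with both XH pools below both WRR pools. The log2 change of -0.63 (SE 0.11) did not pass (limma, adjusted p = 0.0575), and it passed in 2 of 14 alternative fits.

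BNIP3 and BNIP3L encode related receptors of the outer mitochondrial membrane. BNIP3 (ENSGALG00000010476, chromosome 6, 36811401 to 36815716) had 233 FPKM in XHl and 221 FPKM in XHh, against 106 FPKM in WRRl and 100.5 FPKM in WRRh. The pools of 1 breed lay close together, within 1.06-fold, and the breeds were far apart, with a log2 change of 1.13 (SE 0.11, limma, adjusted p = 0.0479). BNIP3L (ENSGALG00000000231, chromosome 22, 528197 to 542276) had 28.4 FPKM in XHl and 26.0 FPKM in XHh, against 29.3 FPKM in WRRl and 22.9 FPKM in WRRh. Its 2 low-weight pools were the highest and the breeds overlapped, with a log2 change of 0.07 (SE 0.13, limma, adjusted p = 0.741).

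FAM134B, a receptor that shapes endoplasmic reticulum membrane and marks it for autophagy in mammals, had the widest separation of the 7. The gene (ENSGALG00000012960, chromosome 2, 77364776 to 77426979) had 191 FPKM in XHl and 245 FPKM in XHh, against 56.9 FPKM in WRRl and 40.4 FPKM in WRRh. The lowest XH pool was far above the highest WRR pool, and the 2 high-weight pools held the extremes. The log2 change was 2.15 (SE 0.24, limma, adjusted p = 0.0483). Taken with its sign, it was above that of 99.5% of tested genes, which include every gene lower in XH. None of the 7 genes overlaps another gene model in the tables.

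In the libraries as deposited, both XH pools were above both WRR pools for 5 of the 7 genes and below them for 1. Over all tested genes, XH lay wholly above WRR for 15.0% and wholly below for 51.8%. By size alone, 3 genes were at least 2-fold higher in XHl than in WRRl (SESN1, BNIP3 and FAM134B), where 1.83% of genes were. In XHh against WRRh, ULK2 joined them and made 4 genes, where 1.93% of genes were at least 2-fold higher. None of the 7 was at least 2-fold lower in XH, where 12.3% of genes were in the low-weight and 7.29% in the high-weight pools. Because the 7 were chosen with earlier results of these data known, these shares do not test whether autophagy genes stand out.

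The tested genes as a whole were shifted between the breeds, with a median log2 change of -0.24 in the deposited FPKM. Against that median the changes were 2.40 for FAM134B, 1.61 for SESN1, 1.37 for BNIP3, 1.35 for ULK2, 0.63 for ULK1, 0.31 for BNIP3L and -0.38 for SQSTM1. With median-of-ratios factors, which brought the median of all genes near 0, FAM134B, SESN1, BNIP3 and ULK2 passed the test (limma, adjusted p of 0.0436, 0.0387, 0.0403 and 0.0474). Under these factors the breeds no longer overlapped for BNIP3L, with 30.7 in XHl and 29.3 in XHh, against 26.2 in WRRl and 21.0 in WRRh. The share of all genes without overlap was not counted under these factors, so this is not read as particular to BNIP3L. Its change under them was 0.34 on the log2 scale (limma, adjusted p = 0.183). SQSTM1 stayed lower in XH at -0.35 (limma, adjusted p = 0.132), and all 7 genes kept their sign. Quantile normalization also brought the median of all genes near 0 (0.039), but with it 0 of the 7 passed. The adjusted p in limma was then 0.0628 for SESN1 and BNIP3, 0.0658 for FAM134B and 0.0689 for ULK2.

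**Figure D2:**
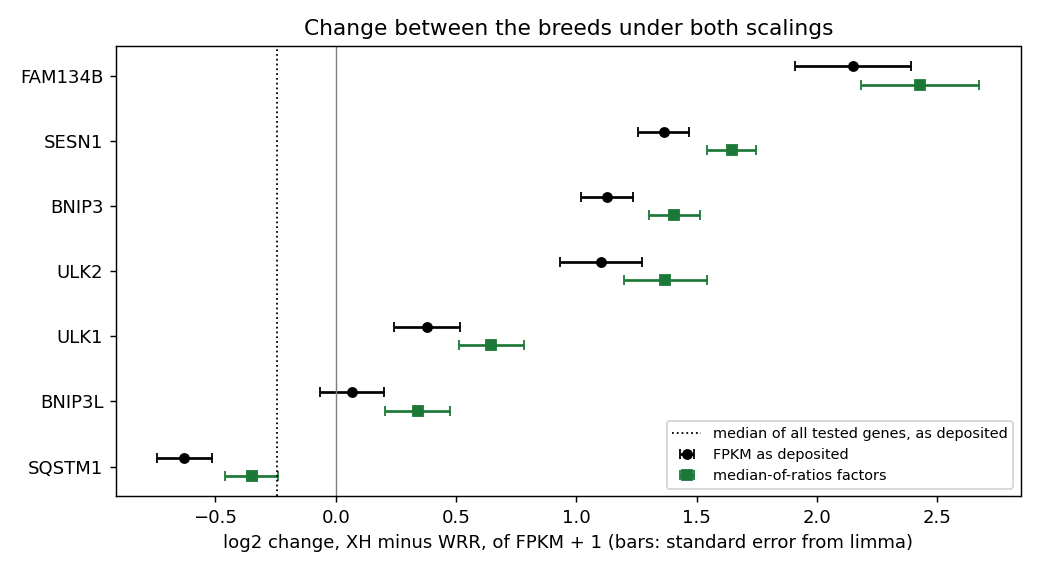
Log2 change of FPKM + 1 between the breeds, XH minus WRR, for the 7 genes, from FPKM as deposited (circles) and after median-of-ratios factors (squares), with bars of 1 standard error from limma. The dotted line is the median of all tested genes as deposited (-0.24), and only SQSTM1 lies to the left of it.

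The order of the levels differed between the breeds. In XH, SESN1 (mean 566 FPKM) was followed by BNIP3 (227 FPKM) and FAM134B (218 FPKM), whose pools overlapped, and then by SQSTM1 (100.02 FPKM). ULK2 (28.5 FPKM) and BNIP3L (27.2 FPKM) overlapped as well, and ULK1 (19.6 FPKM) was lowest. In WRR, SESN1 (mean 217 FPKM) was followed by SQSTM1 (155 FPKM), BNIP3 (103 FPKM), FAM134B (48.6 FPKM) and BNIP3L (26.1 FPKM), none of which overlapped its neighbour. ULK1 (14.9 FPKM) and ULK2 (12.9 FPKM) came last in WRR, and their pools overlapped. FAM134B thus stood above SQSTM1 in both XH pools and below it in both WRR pools.

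The paralogs were compared within each library, where the scaling of the library cancels. BNIP3L reached 0.122 of the BNIP3 level in XHl and 0.118 in XHh, against 0.276 in WRRl and 0.228 in WRRh. BNIP3 was thus the main form in all 4 libraries, and by more in XH. The log2 ratio of BNIP3L over BNIP3, on FPKM + 1, averaged -3.01 in XH and -1.96 in WRR, a difference of -1.06. The sum of both genes was 261 FPKM in XHl and 247 FPKM in XHh, against 135 FPKM in WRRl and 123 FPKM in WRRh.

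ULK2 over ULK1 was 1.35 in XHl and 1.56 in XHh, against 1.04 in WRRl and 0.711 in WRRh. ULK2 exceeded ULK1 clearly in XH, was about level with it in WRRl and was the lower of the pair in WRRh. The log2 ratio averaged 0.52 in XH and -0.20 in WRR, a difference of 0.72. The sum of both kinases was 48.3 FPKM in XHl and 48.1 FPKM in XHh, against 29.0 FPKM in WRRl and 26.5 FPKM in WRRh. For both pairs the ratios of the breeds did not overlap, and the exact two-sided permutation test gave p = 0.333, the smallest that 6 arrangements of 4 libraries allow, so this design cannot reach 0.05.

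**Figure D3:**
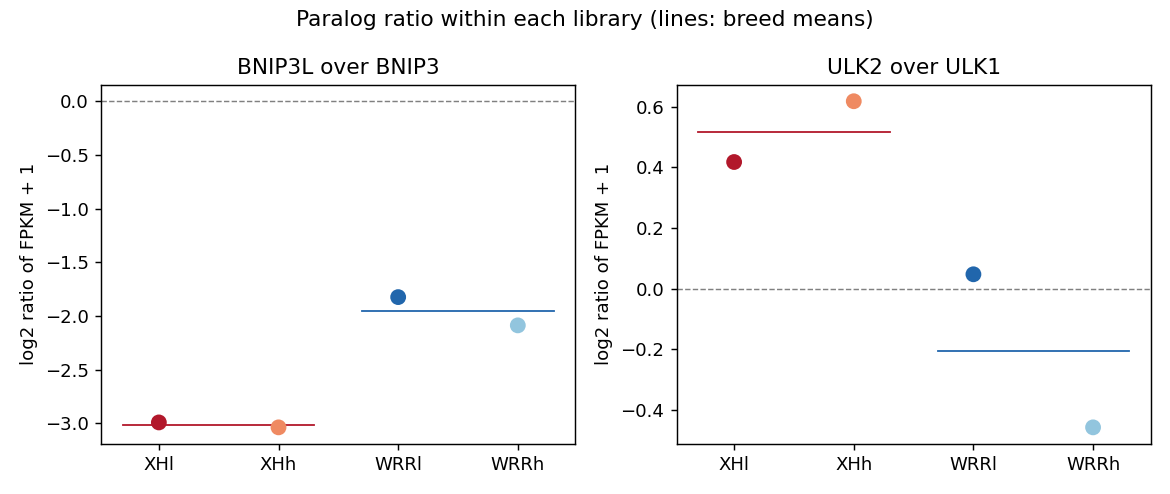
Log2 ratio of FPKM + 1 of BNIP3L over BNIP3 (left) and of ULK2 over ULK1 (right), 1 point per library, with a line at each breed's mean and a dashed line where both genes are equal. BNIP3L over BNIP3 lies lower in XH (-3.01) than in WRR (-1.96), and ULK2 over ULK1 lies higher in XH (0.52) than in WRR (-0.20).

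Between the weight classes none of the 7 genes passed the test. Among the 10669 genes, 4 (0.0375%) were called higher by limma and 2 (0.0187%) lower in low-weight birds, and 619 genes had an unadjusted p under 0.05. SESN1 was the 1 gene of the 7 among those, with a log2 change of 0.44, low minus high (SE 0.11, limma, unadjusted p = 0.0140, adjusted p = 0.809). SESN1 was 1.45-fold higher in XHl than in XHh and 1.27-fold higher in WRRl than in WRRh.

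In the FPKM as deposited, BNIP3L was the only gene of the 7 whose weight classes did not overlap across the breeds. Both of its low-weight pools were above both high-weight pools, as for 10.4% of all tested genes. With median-of-ratios factors its weight classes overlapped, with 26.2 in WRRl below 29.3 in XHh. They also overlapped with quantile normalization (27.6 in WRRl, 28.1 in XHh). As deposited, the low over high ratio of BNIP3L was 1.09 in XH and 1.28 in WRR. Its log2 change of 0.23 (SE 0.13) did not pass (limma, adjusted p = 0.809). SQSTM1 was 1.18-fold higher in XHl than in XHh and 1.22-fold higher in WRRl than in WRRh (log2 change 0.26, SE 0.11, limma, adjusted p = 0.809). BNIP3 differed little, 1.05-fold in XH and 1.06-fold in WRR.

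For FAM134B, ULK2 and ULK1 the low over high ratio went opposite ways in the breeds. The share of all tested genes that did so was not counted, so these genes are described only. FAM134B was 0.781 times as high in XHl as in XHh and 1.41 times as high in WRRl as in WRRh. The ratio of ULK2 was 0.947 in XH and 1.34 in WRR, and that of ULK1 was 1.09 in XH and 0.922 in WRR. None of the 7 genes was 2-fold apart within a breed. At least 2-fold higher in the low-weight pool were 0.779% of genes in XH and 3.28% in WRR, and at least 2-fold lower were 0.539% in XH and 0.748% in WRR.

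**Figure D4:**
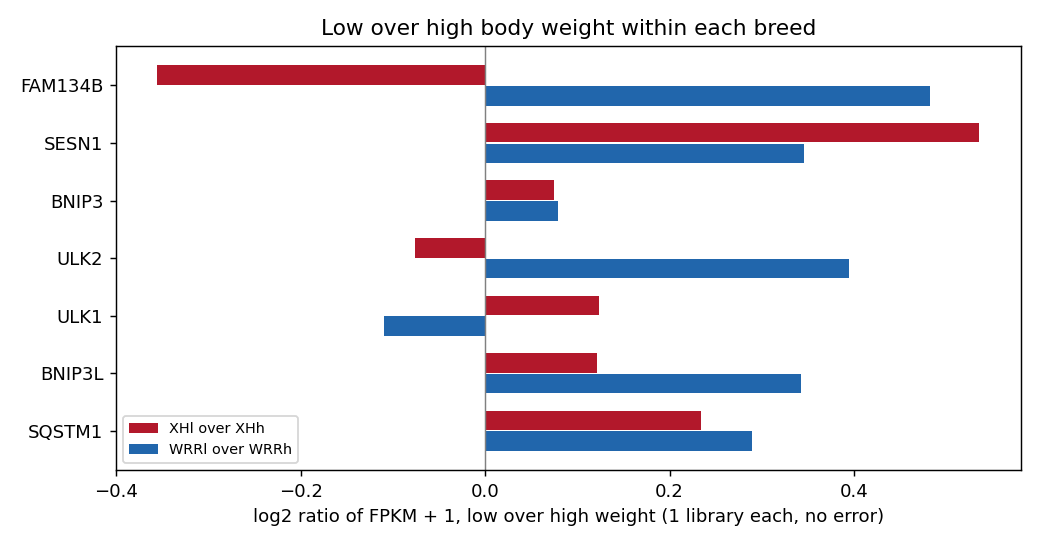
Log2 ratio of FPKM + 1, low over high body weight, within XH (red, upper bar) and within WRR (blue, lower bar) for the 7 genes, with 1 library on each side and therefore no error. The bars of FAM134B (-0.36 in XH, 0.48 in WRR), ULK2 (-0.08 in XH, 0.39 in WRR) and ULK1 (0.12 in XH, -0.11 in WRR) point in opposite directions.

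Around these genes, 10 lists of the autophagy pathway held 90 genes, of which 59 matched 1 gene ID and 58 were tested. The 6 listed genes of the ATG8 family had no match and were not analysed here. Apart from the 7 genes, 51 list genes were tested. Of them 0 were called higher and 1 lower in XH, beside the 1.22% and 3.53% of all genes. Of these 51, 18 had a positive and 33 a negative change, where 28.3% of all tested genes had a positive one. The median of the 51 was -0.07 against -0.24 for all tested genes, and 39 of them lay above the latter. With a minimum mean of 5 FPKM the median of all tested genes was -0.18, so it depends on the level of the genes. The lists were not matched to all genes by level, so this gap is descriptive only. None of the lists had a gene called between the weight classes.

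The gene called lower was PRKAA2, the catalytic alpha2 subunit of the energy sensor AMPK, which phosphorylates ULK1 in mammals. PRKAA2 had 13.3 FPKM in XHl and 20.4 FPKM in XHh, against 28.0 FPKM in WRRl and 47.1 FPKM in WRRh (log2 change -1.09, SE 0.13, limma, adjusted p = 0.0483). Both XH pools were below both WRR pools, and in each breed the low-weight pool had less. The call of PRKAA2 held in 3 of 14 alternative fits and in none of those without 1 library and without weight class, where limma's adjusted p was 0.255 without XHh, 0.308 without XHl, 0.0729 without WRRl and 0.157 without WRRh. PRKAA2 was also not called with median-of-ratios factors (log2 change -0.82, limma, adjusted p = 0.0577) or with quantile normalization (log2 change -0.93, limma, adjusted p = 0.0700). The other 9 tested regulators of mTORC1 or AMPK, leaving out SESN1, did not pass. SESN3, the sestrin matched beside SESN1 and named here after its values were seen, had 1.77 FPKM in XHl and 2.86 FPKM in XHh, against 8.42 FPKM in WRRl and 3.85 FPKM in WRRh (log2 change -1.05, SE 0.41, limma, adjusted p = 0.171). TSC1 of the same list had 12.6 FPKM in XHl and 12.7 FPKM in XHh, against 7.83 FPKM in WRRl and 8.34 FPKM in WRRh. Its log2 change was 0.59 (SE 0.13, limma, adjusted p = 0.0746). Of the 11 tested genes of this list, 4 had a positive and 7 a negative change.

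The relatives of FAM134B in the list of endoplasmic reticulum receptors, named after their values were seen, did not pass the test. FAM134A had 30.4 FPKM in XHl and 27.1 FPKM in XHh, against 30.2 FPKM in WRRl and 34.2 FPKM in WRRh (log2 change -0.16, SE 0.15, limma, adjusted p = 0.479). FAM134C had 17.1 FPKM in XHl and 16.5 FPKM in XHh, against 19.5 FPKM in WRRl and 20.5 FPKM in WRRh (log2 change -0.24, SE 0.13, limma, adjusted p = 0.265). CCPG1 of the same list was also named after its values were seen. It had 86.3 FPKM in XHl and 81.4 FPKM in XHh, against 52.3 FPKM in both WRRl and WRRh. Its log2 change of 0.67 (SE 0.12) missed the threshold (limma, adjusted p = 0.0583) and had the sign of FAM134B. This change was the highest among the 51 list genes counted above. Of the 6 tested genes of this list, 3 had a positive and 3 a negative change. Among the mitophagy genes, BNIP3 was the 1 of 9 that was called, and the median of that list was -0.01.

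Among the cargo receptors, OPTN, which binds ubiquitinated mitochondria and bacteria, had the log2 difference farthest from 0. It was close in size to that of SQSTM1 and opposite in sign, and neither passed. OPTN had 216 FPKM in XHl and 193 FPKM in XHh, against 113 FPKM in WRRl and 147 FPKM in WRRh (log2 change 0.66, SE 0.17, limma, adjusted p = 0.0896). The receptor list had a median of -0.10 over 6 genes. In the ULK complex list, 3 genes were tested with a median of 0.38, and ULK2 had the largest.

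In the remaining lists no gene passed, and the gene farthest from 0 in each list is given first. The largest log2 differences were those of RUBCN, a negative regulator of the PI3K complex (-0.47, adjusted p = 0.152 in limma, median of 6 genes 0.20), and ATG7, the activating enzyme of ATG8 conjugation (-0.60, adjusted p = 0.147, median of 7 genes -0.29). VMP1, a membrane protein needed for autophagosome formation, had a difference of -0.63 (limma, adjusted p = 0.0805, median of 5 genes in its list 0.06). STX17, the syntaxin of autophagosome fusion, had a difference of -0.58 (limma, adjusted p = 0.0799, median of 5 genes -0.50). These sizes are counted from 0 in the deposited FPKM, where the median of all tested genes was -0.24. The highest changes in these lists were 0.39 for NRBF2, 0.17 for ATG4A, 0.23 for WIPI1 and 0.20 for VPS39. Each lay farther from that median than the gene given first for its list.

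**Figure D5:**
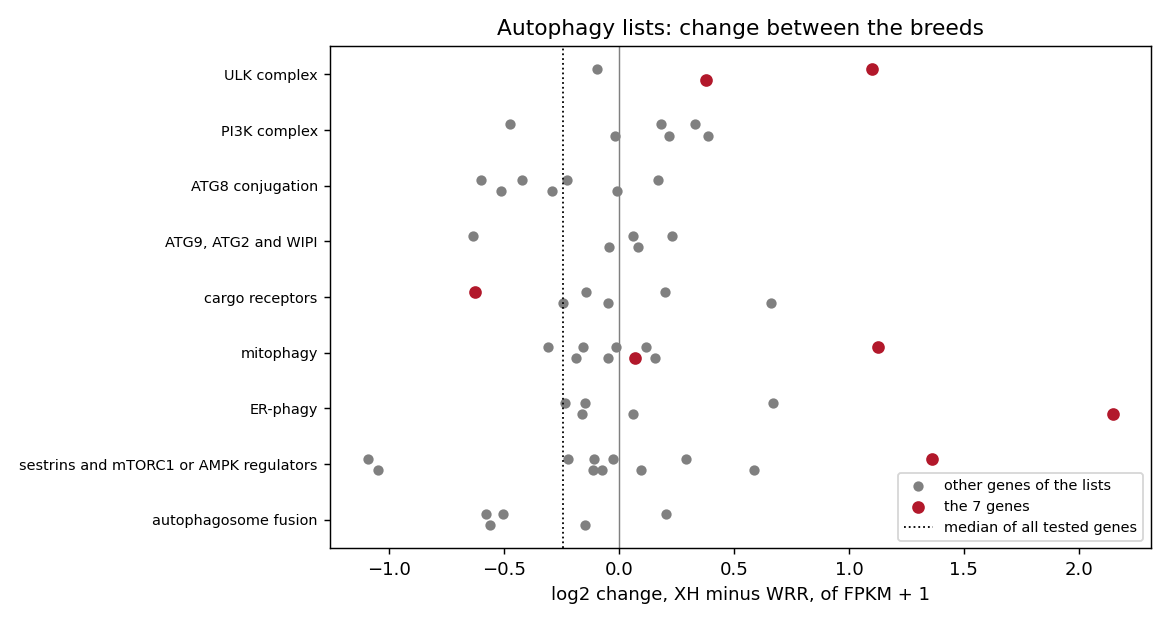
Log2 change of FPKM + 1 between the breeds, XH minus WRR, for the 58 tested genes of the autophagy lists, 1 point per gene, shifted up or down only to keep points apart. The 7 genes are red, FAM134B being the farthest right at 2.15, and the dotted line is the median of all tested genes (-0.24).

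Pooled muscle RNA holds several cell types, and fewer cells of a type cannot be told apart from less RNA per cell. The muscle markers TNNI2 and TNNT3 had their lowest values at 8535 and 7304 FPKM and TNNC2 was listed at 0 in all 4, while the sum of the 7 matched muscle markers was 19757 and 24004 FPKM in XH against 20620 and 21665 FPKM in WRR. Of the 6 genes tested in the muscle list 1 was called higher in XH, MYL2. It is another light chain, not a listed marker, and stands in the sum in place of MYLPF. The listed muscle markers that were tested were not called. MYL2 had 30.7 FPKM in XHl and 31.8 FPKM in XHh, against 6.12 FPKM in WRRl and 4.88 FPKM in WRRh (log2 change 2.32, SE 0.15, limma, adjusted p = 0.0467), in the direction of the 3 called genes. Of the tested markers of immune cells, 3 of 3 B and plasma cell genes were called lower in XH. Their sums were 34.2 to 109.5 FPKM in XH and 692 to 2450.1 FPKM in WRR. Also called lower were 4 of 7 macrophage genes (sums of 104 to 147 FPKM in XH, 241 to 574 FPKM in WRR). Of the T cell genes, 3 of 7 were called lower (20.1 to 36.1 FPKM in XH, 85.4 to 162 FPKM in WRR). Of the other lists, 3 of 6 fibroblast genes were called lower (936 to 1158 FPKM in XH, 1901 to 2336 FPKM in WRR). The same held for 1 of 3 erythroid genes (63.9 to 101 FPKM in XH, 135 to 184 FPKM in WRR). It also held for 1 of 2 adipocyte genes (63.4 to 69.9 FPKM in XH, 71.6 to 84.8 FPKM in WRR). Of 3 endothelial genes 0 were called, with sums of 78.3 to 78.4 FPKM in XH and 78.0 to 91.6 FPKM in WRR, and the satellite cell list had no match. Apart from MYL2, no gene of the marker lists was called higher in XH, and the part of cell composition in the changes of the 7 genes was not tested. In both breeds the immune sums were also higher in the low-weight pool, beside the low over high ratios of SESN1, SQSTM1 and BNIP3L. The B and plasma cell sum was 109.5 FPKM in XHl against 34.2 FPKM in XHh and 2450.1 FPKM in WRRl against 692 FPKM in WRRh. The macrophage sum was 147 against 104 FPKM in XH and 574 against 241 FPKM in WRR, and the T cell sum was 36.1 against 20.1 FPKM in XH and 162 against 85.4 FPKM in WRR, low-weight against high-weight pool. Their part in those ratios was not tested.

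For each of the 7 genes, the 2 genes of nearest pattern over the 4 libraries were sought among 4411 genes, by the Euclidean distance between log2 values of FPKM + 1 centred on each gene's mean. BNIP3 was nearest to ASB5 (distance 0.0836) and PSME4 (0.0879), ULK2 to BCAR3 (0.125) and WHAMM (0.133), and ULK1 to UFD1L (0.0348) and SIN3B (0.0459). SESN1 was nearest to MCL1 (0.119) and AOX1 (0.172), and FAM134B to PNPLA8 (0.236) and GATM (0.301). BNIP3L was nearest to PHF13 (0.0091) and ESD (0.0239), and SQSTM1 to SPG21 (0.0158) and PITPNC1 (0.0289). MCL1, a survival protein of the BCL2 family, had 435 FPKM in XHl and 315 FPKM in XHh, against 173 FPKM in WRRl and 138 FPKM in WRRh, the same order of libraries as SESN1. Among the 7 themselves, BNIP3 and ULK2 were closest (0.249), the paralogs ULK1 and ULK2 were 0.818 apart, BNIP3 and BNIP3L were 1.07 apart, and SQSTM1 and FAM134B were farthest (2.81).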

How the data were processed

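Breast muscle RNA of 4 pools, each of 3 birds, was sequenced. After a quality filter, the authors mapped the reads to Ensembl's chicken genome by TopHat, allowing 2 mismatches, and derived from them the FPKM values that were deposited. The submitters' processing notes name TopHat, of a version not given, and galGal4. Each of the 4 tables holds 2 libraries, so each library stands in 2 tables. The values agreed, except for 69 values listed at 0 in just 1 table, which took the other value. The tables' columns of fold changes, p-values and q-values for pairs of libraries were not used.

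The tables hold no counts per gene, so the number of reads behind each FPKM value was not recovered and no counting interval is given, although the study states the mapped reads of each library. From the steps between values under 0.3 FPKM, the depth relative to WRRh was 1.52 in XHl, 0.865 in XHh and 0.847 in WRRl.

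Limma 3.58.1 (R 4.3.3) fitted breed and weight class together to log2(FPKM + 1) of the 10669 genes averaging 1 FPKM or more in 4 libraries, with trend and robust moderation and Benjamini-Hochberg adjustment at 0.05. The fit was run on simulated data with known changes, and its pass rested only on the size of the estimated change. No limit was set there on false calls. Each group is 1 pool and the birds of a pool are not replicates, so no spread between replicate pools was measured. The residual behind the p-values is how far the low-high difference differs between the breeds, moderated over all genes. Contrasts of 2 libraries are described by size with no p, and at least 2-fold means a log2 ratio of FPKM + 1 of at least 1 in size, both values above 0 and a mean of at least 1 FPKM. Median-of-ratios factors divide each library by its median ratio to the genes' mean level.

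The 7 genes, the pathway lists and the marker lists were chosen with earlier results of these data known. Genes named are the 7, the list genes called or with the largest change from 0 in their list, and the 2 nearest patterns (mean of at least 5 FPKM) of each. Outside this rule, SESN3, TSC1, FAM134A, FAM134C, CCPG1, NRBF2, ATG4A, WIPI1, VPS39 and the marker ADIPOQ were named after their values were seen. The marker MYLPF was matched through MYL2, another light chain, and is not read as MYLPF. Alternatives changed the pseudocount (0.1 or 5), the minimum FPKM, genes listed at 0, the scaling, the model, the moderation and each library, and leaving out 1 library also left only the factor tested in the model. Other steps used Python 3.11.15, numpy 2.4.6, pandas 2.3.3 and matplotlib 3.10.9. The qPCR and other experiments of the study were not analysed here.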

Additional observations from a re-analysis of the deposited data

Results flagged for a closer look

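For 3 of the 7 genes the low-weight pool moved one way from the high-weight pool in XH and the other way in WRR. With 1 library on each side the difference between the breeds was not tested. How many of all tested genes went opposite ways was not counted, so the number 3 is not read as particular to these genes. The low over high log2 ratio of FAM134B was -0.36 in XH and 0.48 in WRR. That of ULK2 was -0.076 in XH and 0.39 in WRR, and that of ULK1 was 0.12 in XH and -0.11 in WRR. With median-of-ratios factors the signs were the same, at -0.41 in XH and 0.44 in WRR for FAM134B, -0.13 in XH and 0.36 in WRR for ULK2, and 0.072 in XH and -0.15 in WRR for ULK1. Quantile normalization also kept all 6 signs, but the log2 ratio of ULK1 in XH was then only 0.039.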

How the results depend on the processing

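The 507 genes called between the breeds became 9 with a pseudocount of 5, 11 with no minimum, 1007 with a minimum mean of 5 FPKM, 1807 when genes listed at 0 in any library were dropped, 325 by median-of-ratios scaling (206 higher and 119 lower in XH, against 130 and 377 as deposited), 14 with quantile normalization, 766 with breed alone in the model, 3 without trend and 10 without robust moderation, and 13 to 1456 when 1 library was left out. Of the 7 genes, 3 were called between the breeds, against 0 with a pseudocount of 5, with no minimum, with quantile normalization, without trend or without robust moderation, 5 with a minimum mean of 5 FPKM or over genes above 0 in all libraries, and 0 to 3 when 1 library was left out. Over 14 alternatives limma's adjusted p ran from 0.0165 to 0.227 for BNIP3 and FAM134B (called in 7 each), 0.0145 to 0.227 for SESN1 (5), 0.0231 to 0.241 for ULK2 (7) and 0.0339 to 0.320 for SQSTM1 (2). Each of these 5 kept its direction between the breeds in all 14, as did ULK1. The breed change of BNIP3L turned to -0.10 without WRRh (range -0.10 to 0.24 when 1 library was left out). The 6 genes called between the weight classes became 3 with a pseudocount of 5, 0 over genes above 0 in all libraries (705 at an unadjusted p under 0.05) and 12 to 18 when 1 library was left out. The weight change of ULK1 turned to -0.037 with median-of-ratios factors and -0.073 with quantile normalization. Every fit with 1 library left out held a single factor, so the breed fits above lacked weight class and the weight fits lacked breed, and the effects of the library and of the model were not separated. The weight change then ran from -0.49 to 0.64 for BNIP3, -0.24 to 0.26 for ULK1, -0.51 to 0.83 for ULK2, -0.067 to 0.59 for SQSTM1, -1.22 to 1.35 for FAM134B and -0.29 to 1.17 for SESN1. The difference in BNIP3L over BNIP3 stayed between -1.19 and -0.93, and in ULK2 over ULK1 between 0.47 and 0.97, when 1 library was left out. Other causes were not tested. Breed was already compared within weight class in the model, and the fit with breed alone is the one without that term. Weight class is relative to each breed, so that term does not match the breeds for body weight. No paired analysis was possible because, beyond that term, the labels give no replicate numbers to pair by and each group is 1 pooled library.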
